A study of Mus musculus with 21 samples.

Results

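Among the open-chromatin peaks of mouse endothelial cells, a small class was both wide and of similar height in brain, liver and lung. Of 60119 peaks in all and 58796 on the autosomes, 384 autosomal peaks were at least 1500 bp wide, and 316 of these, 82.3%, met both further limits. The first limit was a mean of at least 5 CPM (reads in the peak per 1000000 reads in all peaks of the library) in each tissue. The second was a largest tissue mean at most 2 times the smallest. Because the tissue means chose these peaks, their likeness across tissues is a description here and carries no test. The 316 peaks made up 0.526% of all peaks and 1.83% of the bases in peaks.

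ATAC-seq uses a transposase that inserts sequencing adapters where DNA is not covered by nucleosomes, so that reads pile up at accessible promoters, enhancers and insulators. Promoters of widely expressed genes, often rich in CpG dinucleotides, tend to stay accessible in many cell types, whereas distal enhancers differ more from tissue to tissue. Endothelial cells line every blood vessel and differ by vascular bed: those of brain form a tight barrier, those of liver sinusoids are fenestrated, and those of lung capillaries serve gas exchange. These statements are background. Whether the wide peaks lie at promoters was not checked, since no gene annotation or genome sequence of the build of the peaks was used here, and no gene name or sequence is given for a peak.

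Endothelial cells came from whole brain, lung and liver of perfused C57BL/6J mice 2 to 4 months old, with no genetic change or treatment named. After digestion with collagenase, dispase and DNase, and removal of myelin in brain alone, living cells were sorted as CD31+, PDGFRβ- and CD45-. ATAC-seq covered 4 brain, 3 liver and 4 lung libraries, and the labels tie none of them to an animal, so spreads between libraries may be technical. A pair of lung columns could not be matched to a numbered sample and are called lung a and lung b.

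The libraries differed in depth. Brain held 5003580 to 17956240 counts in peaks, liver 1856763 to 2175575 and lung 1244653 to 6046832, with lung a and lung b the shallowest of the 11. The median peak of the class held between 149 and 2369.5 reads in a library, the smallest value in any library was 10 reads, and none was at 0. Brain 2, liver 3 and lung 2 stood apart from the other libraries of their tissue at most of the densest peaks, as given further on. In bulk libraries, fewer cells with an open site and fewer reads per cell cannot be told apart. In RNA libraries of the same tissues, all 8 endothelial markers were detected in each tissue, with a summed level of 4054 to 5022 CPM in brain, 5068 to 5213 in liver and 8667 to 12242 in lung. The 4 lung epithelial markers summed to 299.7 to 1786 CPM in lung RNA, nearly all of it Scgb1a1, at 286 to 1772 CPM, while Sftpc reached 7.02 and Ager 9.64 CPM and Epcam was at 0 in 2 of 3 libraries. The 4 hepatocyte markers summed to 195 to 554 CPM in liver and to 49.0 to 966 in brain, where Ttr alone made 46.1 to 961 CPM and Alb and Apoa1 were at 0. The 4 leukocyte markers summed to 53.3 to 59.8 CPM in lung and to at most 6.50 in brain and liver. The 5 mural markers summed to 23.8 to 156 CPM in brain, 9.69 to 40.3 in lung and 0.899 to 9.79 in liver, where Pdgfrb was at 0. The 6 markers of astrocytes, neurons and oligodendrocytes reached at most 49.5 CPM in a brain library. The part of other cells in the peak heights was not tested.

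The class spanned a wide range of heights and kept its place in every library. Its median tissue mean was 126 CPM in brain, 110 CPM in liver and 121 CPM in lung. The 68 other wide autosomal peaks, which failed a limit, had medians of 113, 56.1 and 45.8 CPM in the same order. The 15083 narrower autosomal peaks that met the same level and evenness limits had medians of 24.7, 26.2 and 25.2 CPM. The median peak of the class stood at 97.2 CPM in liver 3, the lowest library, and at 132 CPM in brain 1, the highest.

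**Figure D1:**
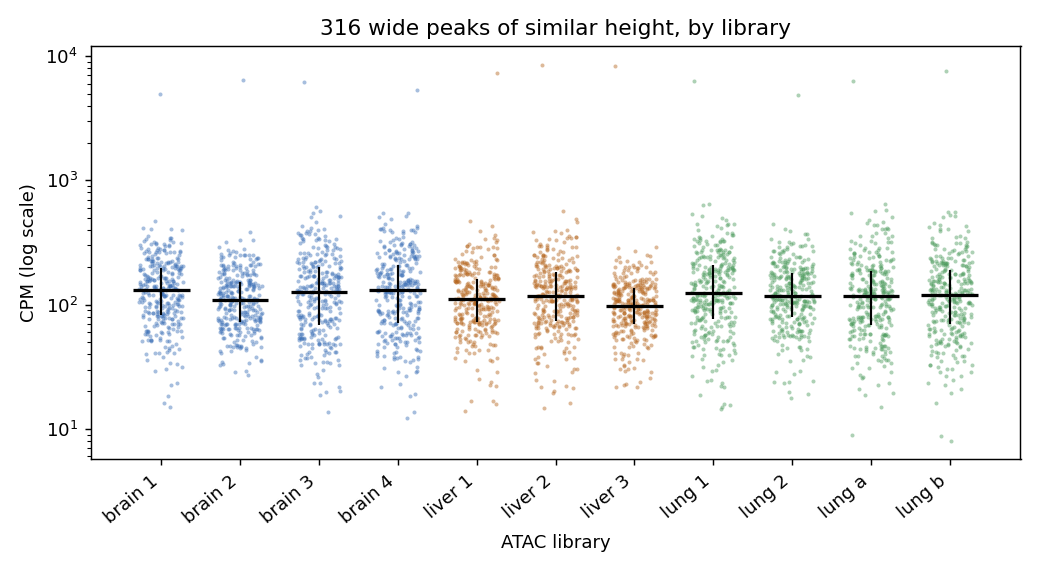
Height of the 316 wide, even peaks in each of the 11 ATAC libraries, in CPM on a log scale. Each point is a peak, horizontal bars are medians, which run from 97.2 CPM in liver 3 to 132 CPM in brain 1, and vertical bars join the quartiles; the point far above the others in every library is the same peak on chromosome 17.

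Per length, the class was denser in reads than most peaks. Its median density, the mean of the tissue means per kilobase, was 67.9 CPM per kb with quartiles of 44.2 and 102 and a range of 11.7 to 1706. The narrower even peaks had a median of 36.5 CPM per kb, and all autosomal peaks together 16.1. Width and reads are not independent measures, since peak callers tend to draw taller peaks wider.

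In all, the class took 5.06% ± 0.418 (SD, n = 4) of the counts in peaks in brain, 4.67% ± 0.535 (SD, n = 3) in liver and 5.17% ± 0.325 (SD, n = 4) in lung. Single libraries lay between 4.13% in liver 3 and 5.55% in lung 1, and the 3 tissues overlapped. Without the peak with the most reads, the shares were 4.51%, 3.90% and 4.58%.

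That peak, chr17:39980001-39983905 in mm9, was also the widest, at 3905 bp. Its brain libraries read 4926, 6389, 6167 and 5314 CPM for libraries 1 to 4, its liver libraries 7276, 8535 and 8265 CPM, and its lung libraries 6277 (lung 1), 4850 (lung 2), 6280 (lung a) and 7644 CPM (lung b). By CPM of the total, liver libraries 2 and 3 were above every brain and lung library, while liver 1 lay below lung b. The peak's tissue means were 5699 CPM in brain, 8025 CPM in liver and 6263 CPM in lung, a largest-to-smallest ratio of 1.41. With TMM-scaled libraries the means were closer, at 6277, 6995 and 6325 CPM. With the size factors of DESeq2 they were 6466, 6932 and 6192 CPM, and lung was lowest. This single peak stood 13.6 times above the next member and 56.0 times above the median member, at 1706 CPM per kb. It was singled out from the class in the shares above for its height. Whether its reads come from repeated sequence, such as copies of a ribosomal RNA gene, was not tested, and its CPM would then not be the height of a single site.

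The next tallest members lay in a continuous range. On chromosome 16, chr16:42874776-42876563 read 472, 330, 543 and 512 CPM in brain, 470, 567 and 291 CPM in liver, and 628, 443, 642 and 554 CPM in lung. On chromosome 12, chr12:119539415-119541054 read 401, 329, 563 and 548 CPM in brain, 433, 490 and 285 CPM in liver, and 482, 367, 565 and 530 CPM in lung. At both, brain 2 was the lowest brain library, liver 3 the lowest liver library and lung 2 the lowest lung library, and the 3 tissues overlapped. The wide chr5:109985673-109988113, 2441 bp long, had means of 423 ± 105 CPM in brain (SD, n = 4), 301 ± 90.6 in liver (SD, n = 3) and 538 ± 99.2 in lung (SD, n = 4). Means of brain, liver and lung were 488, 374 and 338 CPM at chr10:98376460-98378196, the reverse of the order of lung and liver seen at the preceding peak. At chr9:94437516-94439445 they were 359, 314 and 504 CPM. In all, 12 members passed 200 CPM per kb, and 4 of the 6 members with the highest means were highest in lung by CPM of the total. With TMM-scaled libraries the peak on chromosome 12 was highest in brain instead, at 521 CPM against 491 in lung, and the one on chromosome 10 was lowest in liver.

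Widths in the class ran from 1500 to 3905 bp with a median of 1665.5 bp, and 27 members were at least 2000 bp wide. Another of the widest, chr1:13362354-13364765 at 2412 bp, had means of 171 ± 26.7 CPM in brain (SD, n = 4), 204 ± 28.4 in liver (SD, n = 3) and 188 ± 11.5 in lung (SD, n = 4). These differ by about the spread between libraries. At the width limit itself, chr7:17199551-17201050 and chr19:40469040-40470539 were 1500 bp wide, with ratios of 1.45 and 1.58. Just outside it, 3 peaks of 1499 bp met the other limits with ratios of 1.05, 1.16 and 1.17.

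Evenness was common at every width. Of the autosomal peaks with at least 5 CPM in all tissues, 71.2% of 21643 were within 2 times. By width the share was 70.1% from 200 bp to below 500 bp, 66.1% from 500 bp, 73.4% from 750 bp, 78.5% from 1000 bp and 84.4% from 1250 bp to below 1500 bp. It was 83.0% from 1500 bp to below 2000 bp and 77.1% (27 of 35) at 2000 bp or more, so the shares did not climb further past the width limit. The share of peaks that reached the level changed more with width: 13.4% of the narrowest group, 91.4% from 750 bp to below 1000 bp and all but 1 of the 384 wide peaks. Median density rose alongside, from 12.9 to 70.2 CPM per kb. These shares describe the rule's own measure and were not tested.

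**Figure D2:**
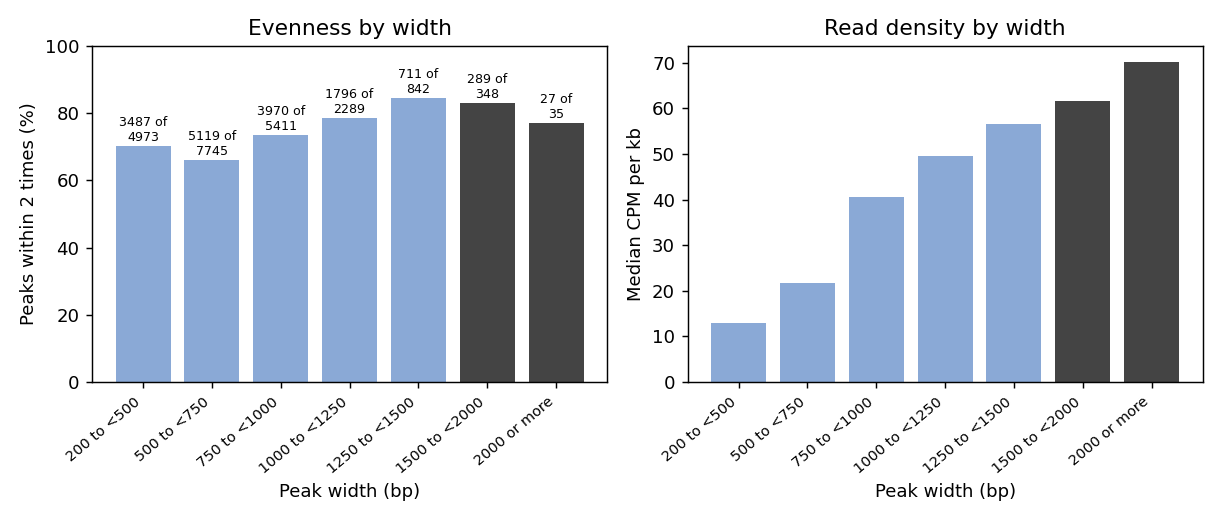
Left, percent of autosomal peaks with at least 5 CPM in all tissues whose tissue means were within 2 times, by peak width in bp, with the number of peaks over each bar. Right, median CPM per kb of all autosomal peaks of that width; dark bars are peaks of at least 1500 bp, whose even share (83.0% and 77.1%) did not exceed the 84.4% from 1250 bp to below 1500 bp.

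The ratio of the largest to the smallest tissue mean had quartiles of 1.22, 1.33 and 1.51 in the class. It was at most 1.1 in 18 members, at most 1.25 in 104 and at most 1.5 in 234, and exceeded 1.8 in 12. By CPM of the total, the most even was chr12:40948807-40950316, a peak of 1510 bp. Its brain libraries read 309, 235, 343 and 394 CPM, its liver libraries 361, 383 and 220 CPM, and its lung libraries 325, 289, 341 and 309 CPM. The tissue means were 320 ± 66.4 CPM in brain (SD, n = 4), 321 ± 88.3 in liver (SD, n = 3) and 316 ± 22.5 in lung (SD, n = 4), a ratio of 1.02. Here the libraries of a tissue differed far more than the tissue means, again with brain 2 and liver 3 lowest. At chr12:101437365-101438867 the means were 80.8 ± 12.02, 77.7 ± 5.22 and 80.4 ± 14.4 CPM in brain, liver and lung. Ratios of 1.04 and 1.05 were found at chr3:51144017-51145688 and chr2:20889738-20891570. With TMM-scaled libraries the ratios of these 4 peaks were 1.28 to 1.34, and with the size factors of DESeq2 1.32 to 1.38, highest in brain and lowest in liver at each.

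The limit of 2 times fell within a continuum. Just inside it, chr17:75404223-75405972 had means of 17.0 CPM in brain, 30.6 in liver and 33.8 in lung, a ratio of 1.99. The peaks chr2:119125525-119127181 and chr12:15822550-15824304, with ratios of 1.96 each, were highest in brain, at 185 and 302 CPM, and lowest in liver, at 94.2 and 154 CPM. Just outside it, chr3:30406752-30408305 had means of 66.6 CPM in brain, 55.7 in liver and 33.1 in lung, and chr19:12869144-12871421 had 311, 192 and 388 CPM, both with a ratio of 2.01. At chr7:88356660-88358630 the ratio was 2.03. Among the 68 wide peaks outside the class, 37 had ratios between 2 and 3 and 31 were above 3.

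The level limit removed almost nothing. Only chr17:82004528-82006104 missed it among wide autosomal peaks, with means of 4.47 CPM in brain, 12.998 in liver and 66.9 in lung, and its ratio of 14.97 would have left it out too. The lowest member, chr11:31848074-31849606, stood well above the limit at 22.1 ± 5.07 CPM in brain (SD, n = 4), 19.1 ± 4.75 in liver (SD, n = 3) and 12.6 ± 5.12 in lung (SD, n = 4).

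**Figure D3:**
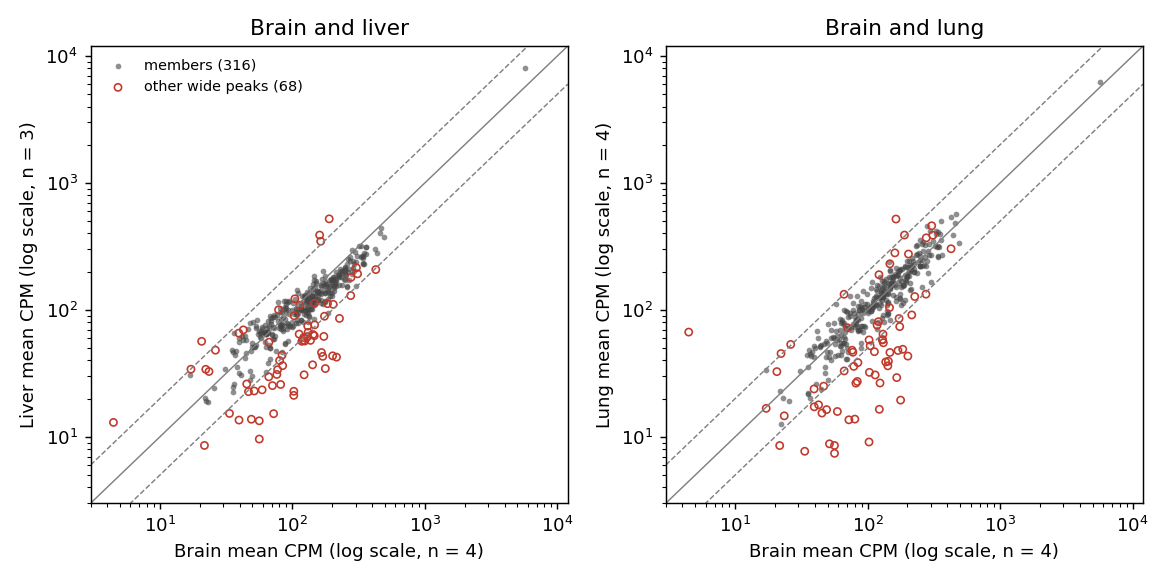
Mean CPM in liver (left, y axis) and lung (right, y axis) against mean CPM in brain (x axis), log scales, for the 316 members (filled) and the 68 other wide autosomal peaks (open); the solid line marks equal means and the dashed lines 2 times. The members follow the solid line up to the chromosome 17 peak near the top right, as the rule requires, and most open points fall below it.

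Which tissue was highest within the 2-fold band depended on how libraries were scaled. By CPM of the total in peaks, lung was highest at 132 members, brain at 126 and liver at 58, and liver was lowest at 171. With library sizes scaled by TMM, which aligns the bulk of peaks, brain was highest at 200, lung at 103 and liver at 13, and liver was lowest at 251. With the size factors of DESeq2 the counts were 226, 78 and 12. Relative to scaling by total, TMM raised brain against liver by 0.349 on the log2 scale, brain against lung by 0.134 and lung against liver by 0.215, from the mean scale of each tissue's libraries. Under these scalings 286 and 282 of the 316 stayed within 2 times. Liver was least often highest and most often lowest under each scaling, whereas the order of brain and lung flipped between them. Among the 68 other wide peaks, brain was highest at 47, lung at 12 and liver at 9, by CPM of the total. Liver was lowest at 54.1% of the members and highest at 18.4% by that scaling. Of all autosomal peaks liver was lowest at 17.2% and highest at 47.4%, but of the 1926 narrower even peaks between 74.2 and 180 CPM it was lowest at 71.7% and highest at 7.68%, against 53.2% and 13.9% of the 158 members in that band.

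The edgeR quasi-likelihood fit across 58293 tested peaks gives the same contrasts with the spread between libraries taken into account. The rule used these contrasts, so the counts are set beside the share of all tested peaks that passed a threshold of 0.05 on the Benjamini-Hochberg adjusted p, and nothing is read from them. Between brain and lung, 40 members were called, 12.7%, against 36.3% of all tested peaks. Of these 36 were higher in brain, where 18% of all tested peaks were called, and 4 in lung, where 18.2% were. Between brain and liver, 88 members were called, 27.8%, against 38.6% of all tested peaks. All 88 were higher in brain, where the share of all tested peaks was 18.1%, and 0 were higher in liver, where it was 20.5%. Between lung and liver, 31 members were called, 9.81%, against 16.3% of all tested peaks, all of them higher in lung (7.51% of all tested peaks) and 0 in liver (8.82%). The median log2 difference of the members was 0.12 for brain against lung, 0.52 for brain against liver and 0.37 for lung against liver, beside -0.10, -0.12 and -0.08 over all tested peaks.

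The direction of these calls moved with the scaling. With libraries scaled by their total alone, edgeR called 66 members between brain and lung (38 higher in brain, 28 in lung), 63 between brain and liver (51 and 12) and 53 between lung and liver (44 and 9). Of all 58293 tested peaks, 19905, 21557 and 9486 were called with that scaling. The number of calls also rested on single libraries. Without brain 2 the counts were 77, 204 and 77 in the same order, beside 21714, 24840 and 10543 of 54093 tested peaks. A larger share of members than of tested peaks was then called for brain against liver and lung against liver, unlike in the full fit. For brain against liver this held also without liver 2, with 120 members beside 19880 of 59505. It held there without lung a too, with 129 members beside 23103 of 58358. For lung against liver the share of members was also the larger with scaling by total. Without liver 3 the counts were 43, 24 and 8, beside 21126, 17023 and 6920 of 59194. Without lung 2 they were 27, 70 and 30, beside 17999, 21402 and 8249 of 54294. Without liver 1 they were 40 for brain against liver and 9 for lung against liver, beside 17671 and 6679 of 59193. Without lung 1 the latter was 9, beside 6622 of 54737. In the full fit no comparison was called for 203 members, 1 for 67 and 2 for 46. The same split was not made over all tested peaks. A member that missed the threshold is not thereby shown to be equal between tissues.

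The rule capped the range of a member's 3 tissue means, so its size against the spread between libraries is a description of the choice. The range of a member's 3 means was a median of 1.82 times its pooled SD between libraries. It was below 1 SD in 62 members, below 2 SD in 176 and above 3 SD in 55. Such a range is above 0 even where tissues do not differ.

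The spread between libraries of a tissue was not used by the rule. The coefficient of variation of CPM (SD over mean) had a median of 0.150 in brain (n = 4), 0.146 in liver (n = 3) and 0.143 in lung (n = 4) over the members. Counting error alone at these depths gives medians of 0.0331, 0.0668 and 0.0638, so most of the spread was beyond it. With TMM-scaled libraries the brain median was 0.245. Narrower even peaks had medians of 0.186, 0.192 and 0.212, but their lower counts add counting error. A closer comparison used the band between the members' quartiles of 74.2 and 180 CPM. There 158 members had medians of 0.128 in brain, 0.122 in liver and 0.129 in lung. In that band 1926 narrower even peaks had 0.159, 0.148 and 0.142, and 27 other wide peaks had 0.142, 0.166 and 0.186. By CPM of the total, members had the lowest median of the 3 sets in each tissue, with boxes that overlapped widely. This ranking was not checked with another scaling. Levels still differed within the band, with medians of 119, 99.1 and 86.9 CPM for members, narrower even and other wide peaks. Median densities were 67.9, 102 and 49.3 CPM per kb in that order. Median counting error was 0.0331, 0.0368 and 0.0311 in brain and 0.0638, 0.0668 and 0.0934 in lung. The sets were therefore not compared like for like. Peaks of a library share its depth and handling, and the differences between sets were not tested.

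**Figure D4:**
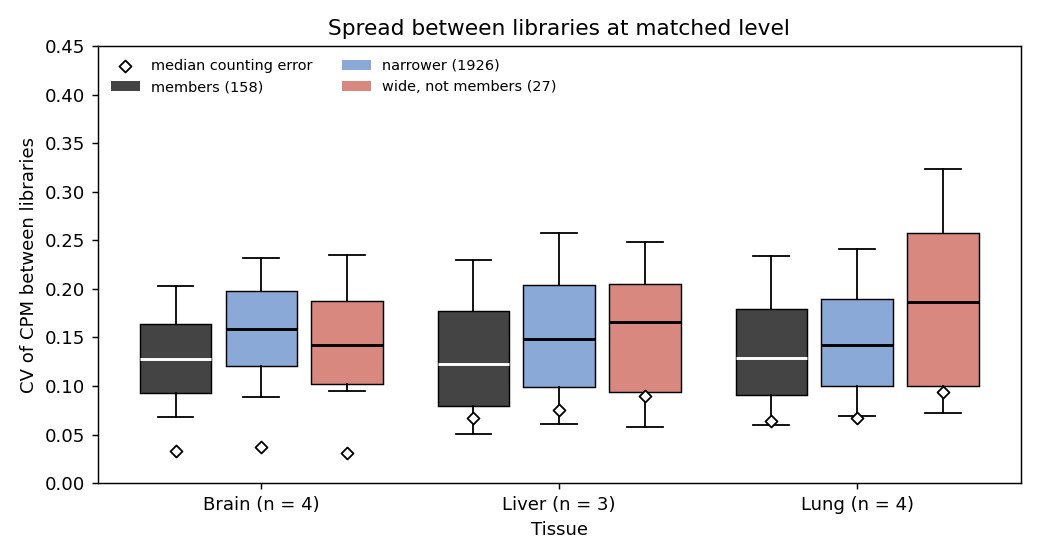
Coefficient of variation of CPM between libraries of a tissue for peaks with a mean between 74.2 and 180 CPM: members (158), narrower even peaks (1926) and other wide peaks (27). Median levels within that band were 119, 99.1 and 86.9 CPM in this order. Boxes span the quartiles with a line at the median, whiskers reach the 10th and 90th percentiles, and diamonds mark the median expected from counting alone. By CPM of the total, the only scaling shown, the members' medians, 0.128, 0.122 and 0.129, are the lowest of each trio.

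Single members differed in how well libraries repeated. The smallest spread was at chr5:77694196-77695799, with 51.1, 53.7, 52.0 and 55.6 CPM in brain, 78.6, 70.8 and 72.7 CPM in liver and 57.0, 64.5, 57.6 and 62.7 CPM in lung. By CPM of the total, all brain libraries there were below all lung libraries, and these below all liver libraries, although the ratio was only 1.39. A like case was chr7:152210593-152212160, with 48.2 ± 1.58 CPM in brain (SD, n = 4), 78.7 ± 5.73 in liver (SD, n = 3) and 56.7 ± 4.16 in lung (SD, n = 4). Means of brain, liver and lung were 86.9, 118 and 100.2 CPM at chr14:121777511-121779209 and 77.2, 91.3 and 113 CPM at chr14:76813910-76815522. All 4 peaks with the smallest spread were lowest in brain by CPM of the total, 3 with TMM-scaled libraries and 1 with the size factors of DESeq2. Even members could therefore have tissues whose libraries did not overlap at a given scaling.

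The largest spread was at chr17:35104624-35106286. Its brain libraries read 158, 28.8, 58.0 and 109 CPM, its liver libraries 71.2, 72.2 and 21.5 CPM, and its lung libraries 26.6, 35.7, 100.3 and 58.7 CPM. Libraries of 1 tissue differed by several fold there, so its ratio of 1.61 says little. Next came chr2:59245116-59246681, with 23.4, 37.8, 18.8 and 22.9 CPM in brain, 22.2, 16.1 and 34.5 CPM in liver and 22.2, 23.6, 22.5 and 8.84 CPM in lung. Brain 2 and liver 3 were here the highest of their tissues, unlike at the tall peaks described above on chromosomes 16 and 12. Lung b rested on 11 reads.

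That contrast ran through much of the class, but not its tallest peak on chromosome 17. There brain 2 was the highest brain library, at 6389 CPM, and liver 3, at 8265 CPM, lay above liver 1. Brain 2 was the lowest brain library at 186 of the 316 members and liver 3 the lowest liver library at 224. Among the 79 members with the highest density, brain 2 was lowest at 75 and liver 3 at 78. With the members in 4 groups of 79 from least to most dense, the median log2 ratio of brain 2 to brain 3 went from 0.25 through -0.04 and -0.26 to -0.50. The ratio of liver 3 to liver 2 went from 0.04 through -0.21 and -0.33 to -0.60, and it was below 0 at 79 of 79 in the densest group.

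Put as contrast within a library, the median of the densest group over that of the least dense was 4.34, 3.57, 5.65 and 5.44 in brain 1 to 4 and 3.59, 4.18 and 2.84 in liver 1 to 3. It was 5.34, 3.83, 5.48 and 5.27 in lung 1, lung 2, lung a and lung b. Libraries of 1 tissue therefore differed in how strongly dense and sparse members were separated, with brain 2, liver 3 and lung 2 the flattest of their tissues. The library ratios given here and above set that flattest library against a steeper one, in brain and liver the steepest. They are therefore not typical of a pair of libraries. Spearman's rho across the 316 members between density and the log2 ratio was -0.743 for brain 2 over brain 3, -0.629 for liver 3 over liver 2 and 0.523 for lung b over lung 2. Over the 15083 narrower even peaks it was -0.534, -0.423 and 0.185. Peaks share libraries and are not replicates, so these describe the libraries and carry no p. The ratio between tissues had a rho of -0.021 with density. What set these libraries apart was not tested.

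Without brain 2 the rule finds 314 members, of which 312 are shared with the full set, without liver 3 it finds 322, of which 316 are, and without lung 2 it finds 313, of which 312 are. In the densest group, liver was the lowest tissue at 64 of 79 members, brain at 7 and lung at 8.

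**Figure D5:**
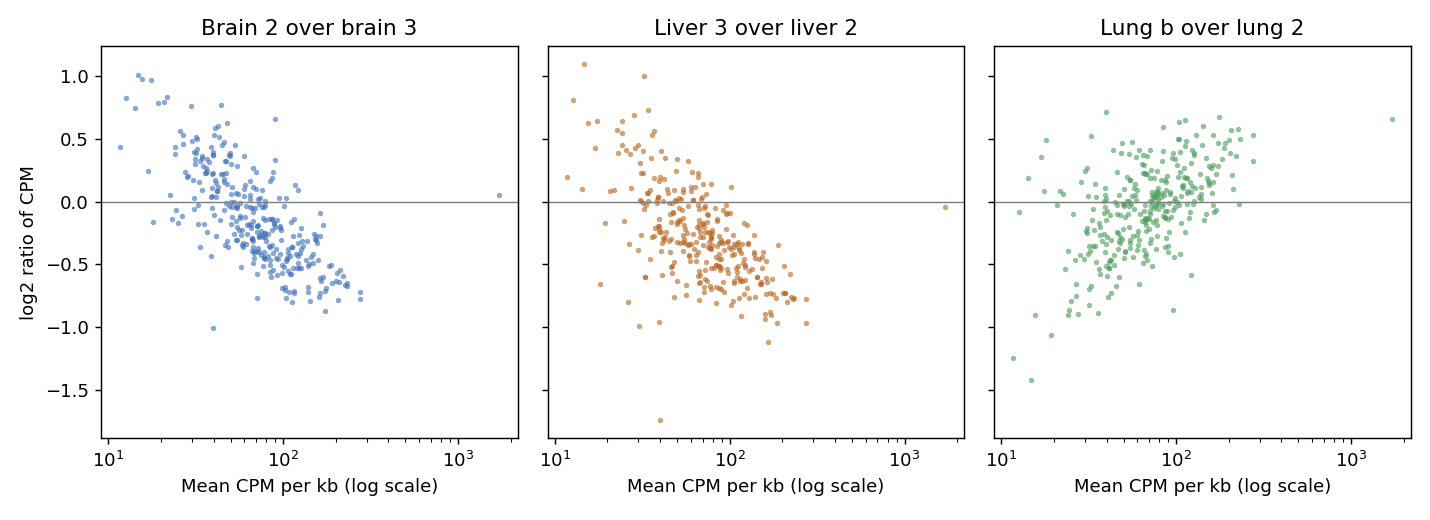
Log2 ratio of CPM between libraries of the same tissue (y axis) against mean density in CPM per kb (x axis, log scale) for the 316 members: brain 2 over brain 3, liver 3 over liver 2 and lung b over lung 2. Each pair holds the flattest library of its tissue, in brain and liver set against the steepest. The brain and liver ratios fall with density, with rho of -0.743 and -0.629, and the lung ratio rises, with rho of 0.523; the isolated point at the far right is the chromosome 17 peak.

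The values of a library left out of the choice were described as well. Each library was left out in turn, members were chosen from the other 10, and the left-out library was compared with the others of its tissue. It lay within 2 times their mean at 99.4% to 100% of the members, and at 93.4% to 100% of the wide peaks outside the class. The median ratio was lowest for liver 3, at 0.827, and brain 2, at 0.867, and highest for liver 2, at 1.15. When the left-out library stood in for its tissue, the ratio limit still held at 88.5% (liver 3) to 99.4% (liver 1) of the members chosen without it. Of the wide peaks outside the class, 3.13% (lung b) to 23.2% (brain 2) then met that limit. The means of the other tissues, which chose the members, enter that ratio too, and the left-out library was also close to its tissue at most wide peaks outside the class, so these shares follow in part from the choice. Liver 3 moved the largest share of members across the limit.

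Across the members, heights were correlated between libraries. Pearson correlations of log2(CPM + 1) over the 316 members were 0.935 to 0.985 between libraries of a tissue and 0.868 to 0.939 between tissues. Without the tallest peak they were 0.929 to 0.984 and 0.858 to 0.935. Over the 68 other wide peaks they were 0.902 to 0.971 within and 0.457 to 0.798 between tissues. The narrower even peaks gave 0.869 to 0.943 between tissues, about as in the class. Values between tissues follow in part from the rule, and points share libraries.

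Members lay on all 19 autosomes, from 8 on chromosome 14 to 25 on chromosome 7. Per 1000 autosomal peaks the class numbered 5.37. The rate was 9.49 on chromosome 12 (24 members of 2530 peaks), 7.69 on chromosome 16 (17 of 2210) and 2.40 on chromosome 11 (9 of 3756). Chromosome 11, a gene-rich mouse chromosome, held 2.85% of the members but 7.74% of the narrower even peaks, while chromosome 12 held 7.59% and 3.94%. Of the 79 densest members 12 were on chromosome 12 and 0 on chromosome 11. Of the wide autosomal peaks, 62.5% on chromosome 8 and 94.7% on chromosome 6 were members, from 16 and 19 wide peaks. These counts are small and were not tested.

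Members lay further from each other than from other peaks, which are far more numerous. Their distances were not compared with those of sites placed at random. The nearest other peak of any kind was a median of 9039 bp away, against 7361 bp for the other wide peaks and 5560 bp for the narrower even ones. Within 100 kb to either side of the middle lay a median of 8 other peaks, the same as for other wide peaks and below the 10 of the narrower even peaks. Within the band of 74.2 to 180 CPM, members and narrower even peaks had median distances of 9668.5 and 9478.5 bp. Both had a median of 8 other peaks within 100 kb to either side. Within 1 kb of an edge, 30 members had another peak, and 6 had none within 100 kb. The nearest other member was a median of 2.67 Mb away and never closer than 10111 bp, and 12 members had another within 50 kb.

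No stretch of 100 kb held more than 2 members. The pair described here was the first of such pairs met in chromosome order, on chromosome 2. At chr2:17948989-17950719, brain read 154, 144, 122 and 146 CPM, liver 119, 143 and 127 CPM, and lung 108, 96.2, 83.9 and 82.8 CPM. Every lung library lay below every brain and liver library. At chr2:17985643-17987400, 34923 bp further on, brain read 98.6, 77.2, 78.9 and 89.5 CPM, liver 103, 112 and 91.0 CPM, and lung 96.3, 111, 103 and 89.98 CPM. Here the tissues overlapped, with means of 86.1 CPM in brain, 102 in liver and 100.3 in lung. The first of the pair was highest in brain, at 142 CPM, and lowest in lung, at 92.8 CPM, under each of the 3 scalings, while the order at the second changed with the scaling.

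The other pairs, singled out here after their values were seen, varied likewise. The closest, chr17:45709282-45711137 and chr17:45721249-45722773, were 10111 bp apart. The first had means of 118 CPM in brain, 99.2 in liver and 140 in lung, the second 46.5, 71.2 and 53.8 CPM. Liver was thus lowest at the first and highest at the second, under all 3 scalings. On chromosome 7, chr7:4965816-4967475 and chr7:5012508-5014369 had the same order, with 199, 137 and 242 CPM at the first and 149, 114 and 202 CPM at the second in brain, liver and lung. Of the 6 pairs within 50 kb, 2 had the same order of tissues by CPM of the total, 2 with TMM-scaled libraries and 3 with the size factors of DESeq2.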

How the data were processed

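The ATAC table holds whole-number counts of reads per peak that the authors deposited, over 60119 peaks called as 1 set. Per the file headers, the peak names state that a library called lung 3 was left out of that set. The RNA counts per gene symbol, deposited by the authors, were used for cell markers alone. Per the submitters' processing notes the tools included Bowtie2, MACS2, SAMtools 1.10.2, Picard and bedtools, with builds mm9 and mm10; which served which assay, the filters and the call threshold are not given in the sources used here. The peak table uses chromosome names of mm9 that mm10 lacks, and positions are therefore in mm9. Starts were raised by 1, to count from 1.

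CPM were computed from the counts and each column's total. Values are means ± SD over libraries, with Python 3.11.15 and numpy 2.4.6. Tests used edgeR 4.0.16 in R 4.3.3 on counts, with filterByExpr, TMM and 1 robust quasi-likelihood fit of all 11 libraries with a mean per tissue. The biological coefficient of variation was 0.275, and calls were adjusted over 58293 peaks. The steps were checked on simulated data.

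The members, the marker lists and the alternatives were chosen with earlier results of these data known. Peaks were named by rule: the 6 tallest, 4 widest, 4 most even, 4 with the smallest and 2 with the largest spread, those next to each limit, and the run of members lying together. The text gives part of these. The alternatives were another scaling, limit, tool or tissue summary, fewer reads, and leaving out each library. The single-cell table and a column of whole numbers without a name in the peak table were not used. The number of further columns of per-sample values left out was 0.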

Additional observations from a re-analysis of the deposited data

Results flagged for a closer look

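The named peaks were checked for a library far from the others of its tissue, by the gap to the nearest library over the whole range. The share of counts in the class and its median CPM were checked likewise. Only brain and lung were checked, since liver had too few libraries, so no liver library could stand out. Of 70 groups checked 3 stood out, and chance gives about 1 in 20. At chr12:101437365-101438867, the second most even member, brain 3 was low at 63.0 CPM, with the other brain libraries at 85.3 to 88.8 CPM. At chr2:59245116-59246681, lung b was low at 8.84 CPM from 11 reads, with the other lung libraries at 22.2 to 23.6 CPM. At chr17:82004528-82006104, the wide peak below the level limit, lung a was high at 89.1 CPM, with the other lung libraries at 57.0 to 62.2 CPM.

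Outside the autosomes, which the choice of members left out, 16 peaks were at least 1500 bp wide. Of these 13 met the level and ratio limits: 11 of 11 on the X chromosome and 2 of 5 on unplaced or random sequence.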

How the results depend on the processing

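The number of members was 2823 with a width of at least 1000 bp and 27 with at least 2000 bp. It was 290 with TMM and 287 with DESeq2 scaling, 316 at a level of 2 or 10 CPM, 234 at a ratio of 1.5 and 353 at 3. Leaving out a library gave 312 to 322. Calls by edgeR among members are given for brain against lung, brain against liver and lung against liver in this order. They numbered 66, 63 and 53 with scaling by total, beside 19905, 21557 and 9486 of 58293 tested peaks. With a log2 fold change of at least 1 besides they numbered 1, 17 and 9, beside 17950, 18639 and 8032. With DESeq2 they were 62, 167 and 67, beside 20892 and 22744 of 60119, and 9661 of 54291. DESeq2 called a larger share of members than of tested peaks for brain against liver and lung against liver. Leaving out a library gave 27 to 77, 24 to 204 and 8 to 77. Over 54093 to 59505 tested peaks these fits called 17611 to 21714, 17023 to 24840 and 6622 to 10543. The labels do not say whether library numbers pair the libraries. Same-numbered libraries had correlations of deviations from -0.173 to 0.117, and libraries with unlike numbers from -0.116 to 0.179. With so few libraries per tissue, these values cannot show whether libraries were paired. With the replicate block, edgeR called 8, 28 and 6 members, beside 14843, 17940 and 6577 of 59202 tested peaks. Without the block it called 10, 49 and 20 in the same numbered libraries, beside 16416, 19627 and 8794 of 59202. The brain CV was 0.245 with TMM scaling. Shares of counts without the tallest peak were 4.51% (brain), 3.90% (liver) and 4.58% (lung). With a distance of 10 kb in place of 50 kb, 0 members had another nearby. Over 33 named peaks, 463 of 495 recomputed ratios stayed on the same side of 2, and the other 32 came from 9 peaks. Causes were not tested. Alternatives on gene starts were not run, with no annotation of the build used here. Depth limits lung a and lung b most, where the lowest members rest on 10 to 12 reads.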
